A study of Drosophila melanogaster with 2 samples.

Results

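The genes described are 10 of the 13945 protein-coding genes of Drosophila melanogaster: the Brahma complex genes brm, mor, Snr1 and osa, the Brahma partner tna, the trithorax group genes trx, ash1, ash2 and kis, and skd of the Mediator kinase module. They were selected with the peak counts and signals of these same data in view, so those values are given as a description and were not tested. Chromatin of whole mixed-sex embryos aged 0 to 24 h was sheared to fragments of 200 to 800 bp and precipitated with an antibody against GFP. The embryos carried a transgene for the protein of CG7556 with enhanced GFP at its C-terminal end. There was 1 group of 2 biological replicates and no second genotype, treatment or stage. The labels name no promoter for the transgene, and the control was not analysed here. All tissues and stages of embryogenesis were mixed, so a site held in few cells and a weaker site held in many cannot be told apart.

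The trithorax group was defined in flies by mutations that mimic loss of homeotic gene expression, and its products keep genes active against Polycomb repression. Several of them are subunits of the Brahma complex, the fly SWI/SNF machine, which uses ATP to move or evict nucleosomes. Others write histone methylation, remodel chromatin by another ATPase, or link enhancers to RNA polymerase II through Mediator. The question put to the peak lists was where tagged CG7556 was found on the genes that encode this machinery.

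The authors deposited a list of 30000 regions for each replicate, 30000 regions from both replicates pooled, and the 7184 pooled regions that passed their reproducibility threshold, called optimal peaks here. Each region has a summit and a signal value of unstated scale, and signals were compared only within a list or between the replicates at 1 summit. A summit was assigned to a gene when it lay in the gene's span or within 2 kb of either end. Overlapping regions were merged by 1 bp or more to count separate regions. Coordinates are those of dm6, counted from 1.

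The bases around the summits are shown first, because most of them held long runs of A and T. Each line gives 151 bases centred on an optimal summit, read 5′ to 3′ on the plus strand of the RefSeq Release 6 assembly, with capitals marking uninterrupted runs of 10 or more A or T bases. The tna, trx, osa, ash1 and brm lines are strong summits of each gene. The skd line is shown for its TG repeat beside a run of T.
tna chr3L:10855908-10856058: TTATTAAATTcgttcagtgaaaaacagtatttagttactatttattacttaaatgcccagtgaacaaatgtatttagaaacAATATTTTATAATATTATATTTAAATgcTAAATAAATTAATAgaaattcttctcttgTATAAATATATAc
tna chr3L:10843428-10843578: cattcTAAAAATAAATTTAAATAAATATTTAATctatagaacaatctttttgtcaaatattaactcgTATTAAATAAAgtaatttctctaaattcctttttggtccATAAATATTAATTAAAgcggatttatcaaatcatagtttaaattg
trx chr3R:14283792-14283942: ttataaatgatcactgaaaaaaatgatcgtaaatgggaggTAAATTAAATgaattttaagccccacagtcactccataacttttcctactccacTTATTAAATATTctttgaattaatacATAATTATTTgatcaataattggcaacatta
trx chr3R:14278069-14278219: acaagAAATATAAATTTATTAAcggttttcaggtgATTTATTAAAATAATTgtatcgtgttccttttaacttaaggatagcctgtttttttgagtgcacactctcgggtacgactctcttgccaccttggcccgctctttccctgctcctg
osa chr3R:17700515-17700665: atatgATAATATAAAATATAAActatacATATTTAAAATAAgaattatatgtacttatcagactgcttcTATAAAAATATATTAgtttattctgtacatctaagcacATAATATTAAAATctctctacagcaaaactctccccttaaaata
ash1 chr3L:19590545-19590695: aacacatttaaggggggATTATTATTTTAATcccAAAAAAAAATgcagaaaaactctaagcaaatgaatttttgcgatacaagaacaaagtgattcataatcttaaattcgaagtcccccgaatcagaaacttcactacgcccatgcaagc
brm chr3L:15982930-15983080: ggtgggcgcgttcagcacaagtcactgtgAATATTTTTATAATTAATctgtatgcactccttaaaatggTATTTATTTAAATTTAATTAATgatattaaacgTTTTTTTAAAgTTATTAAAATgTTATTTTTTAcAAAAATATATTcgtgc
skd chr3L:21009683-21009833: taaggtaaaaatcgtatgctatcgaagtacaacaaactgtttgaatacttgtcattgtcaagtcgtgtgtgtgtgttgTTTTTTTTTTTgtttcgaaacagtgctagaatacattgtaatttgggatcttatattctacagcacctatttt
In the first tna line 62 of the 151 bases lay in such runs, in the second tna line 55, in the osa line 58 and in the brm line 81. The ash1 line, from the strongest summit at any of the 10 genes, held 24. The trx lines held 32 and 33, and the skd line 11. At the osa summit of rank 58, which is not shown, 21 of the 151 bases lay in such runs.

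Of the 10 genes, 9 had an optimal summit, beside 38.1% of all protein-coding genes, and Snr1 had none. The 5 genes that span 20 kb or more (osa, tna, trx, kis and skd) all had one, beside 72.8% of the 1013 genes of that length. Of the 5 shorter genes, brm, mor, ash1 and ash2 had one, beside 35.4% of shorter genes. Inside the span alone 5 of the 10 had one, the 5 long genes, beside 14.8% of all protein-coding genes. Since the genes were chosen with these counts known, nothing is read from the differences. Their median span was 18167 bp, against 2166 bp for all protein-coding genes.

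The 9 genes held 32 optimal summits in 29 separate regions, and 28 of the summits lay in the windows of the 5 long genes. tna alone held 12, which is 37.5% of them. The 10 windows, of long and shorter genes together, had 1.33 optimal summits per 10 kb, against 0.687 over the windows of all protein-coding genes. Over the windows of all genes of 20 kb or more the value was 0.504 per 10 kb. The 28 summits of the 5 long genes lay in 190 kb of window. The pooled list held 125 regions at the 10 genes, the list of replicate 1 held 118 and that of replicate 2 held 116. Of the 125 pooled regions 25.6% were optimal, against 23.9% of all pooled regions.

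**Figure D1:**
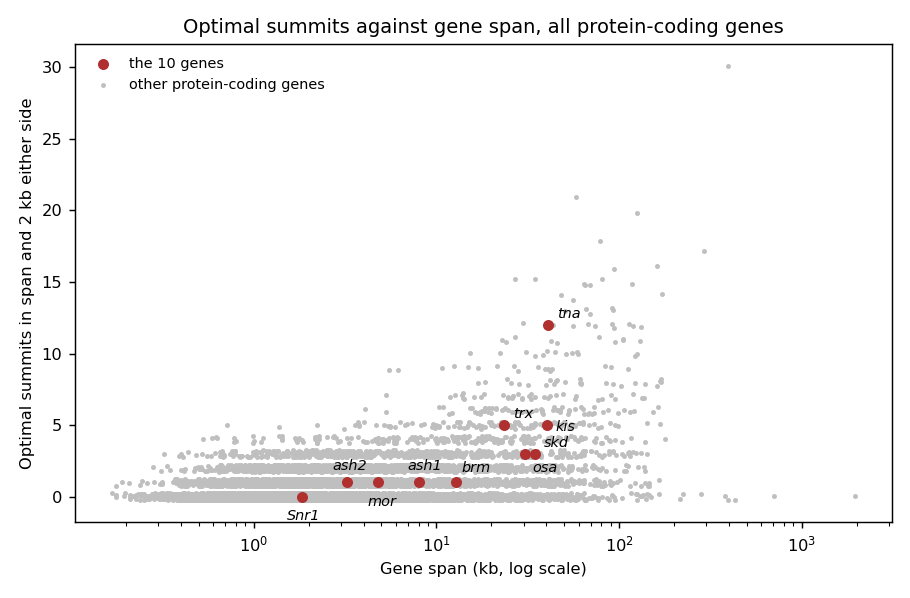
Optimal summits within the gene span and 2 kb either side (vertical axis) against gene span in kb (log scale) for the 10 genes, in red and labelled, and for all other protein-coding genes, in grey with a small random vertical offset so that points do not hide each other. tna stands at 12 summits, trx and kis at 5, and the 5 genes under 20 kb at 0 or 1.

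Signals at the 32 summits had a median of 343 and ran between 146 and 2957, against a median of 244 and a range of 137 to 4859 over all optimal peaks. Of the 32, 20 were among the 3592 optimal peaks of highest signal, 7 among the highest 718 and 3 among the highest 71. Those 3 were 1 summit at ash1 and 2 at osa. The 7 came from 5 genes: ash1, osa, trx, tna and brm.

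Most of these summits lay inside introns and away from the genes' own start sites. Inside the gene spans were 26 of the 32 summits, all 26 in introns of the longest transcript, while 6 lay in the 2 kb flanks. Of the 26, 18 were in intron 1, 12 of them at tna. The share in intron 1 over all optimal peaks is not given here. By place, 21 of the 32 (65.6%) were assigned to introns, 9 (28.1%) to promoters within 500 bp of any gene's start site, and 2 to exons of non-coding genes that lie within introns of kis and osa. Over all optimal peaks introns held 39.9%, promoters 40.6% and intergenic sequence 17.1%, and windows drawn around gene spans leave little room for intergenic summits. The nearest start site of any gene was a median of 1284 bp away, against 909 bp for all optimal peaks. More than 2 kb from any start were 34.4% of the 32, against 35.9% of all optimal peaks.

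For 11 summits, 6 at tna, 4 at trx and 1 at skd, the nearest start was the gene's own, which makes 3 of the 10 genes, beside 22.5% of all protein-coding genes. For the other 21 it belonged to another gene, which for 13 was a long non-coding RNA. Of these 13, 6 were summits of tna, all nearest the same RNA gene. The share of all optimal peaks nearest such a gene is not given here, so nothing is read from the 13. Only brm and skd, 2 of the 10 genes, had an optimal summit within 500 bp of one of their own start sites, beside 21.1% of all protein-coding genes. Among the 5 long genes skd was the 1 so placed, beside 33.8% of long genes.

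The Brahma complex genes differed widely among themselves. brm encodes the ATPase that drives the complex. Its 1 optimal summit, at 3L 15983005, had a signal of 519 in replicate 1, 412 in replicate 2 and 920 in the optimal list, rank 401. The summit lay between the starts of brm and of Arl1, which encodes an Arf-like GTPase of the Golgi. It was 136 bp upstream of the brm start and 130 bp upstream of the Arl1 start. Inside the 12788 bp of brm no optimal summit was found.

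mor, which encodes a core scaffold subunit, had 1 optimal summit, at 3R 15974434, with signals of 275 in replicate 1, 234 in replicate 2 and 510 in the optimal list (rank 1170). It lay in an intron of the neighbour Hel89B, 1136 bp from the start of that gene and 1521 bp upstream of the mor start. Nearer to the mor start, the pooled list held 2 weaker regions, with summits 268 bp and 482 bp upstream and signals of 86.1 and 79.8. Both had the start of Hel89B nearer still, at 117 bp and 97 bp. Neither was optimal.

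Snr1, the fly SNF5 subunit, had no optimal and no pooled region. Replicate 1 listed 1 region there, with its summit at 3R 5470829, 97 bp upstream of the Snr1 start, and a signal of 152 (rank 2829). Replicate 2 listed none. That combination was uncommon: of the 2829 regions of replicate 1 with at least that signal, 21 (0.742%) overlapped neither a region of replicate 2 nor a pooled region.

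osa encodes the ARID-domain subunit that marks 1 form of the Brahma complex, and it carried the second strongest signal among the 10 genes. The summit at 3R 17700590 had signals of 1369 in replicate 1, 1108 in replicate 2 and 2479 in the optimal list, rank 19 of 7184. A second, at 3R 17704408, had 1035 in replicate 1, 935 in replicate 2 and 1977 in the optimal list, rank 58. Both lay in intron 4, 8067 bp long, far from the osa start: the first was 17760 bp and the second 13942 bp downstream of it. Non-coding genes lie in that intron, and the first summit was 151 bp upstream of the start of lncRNA:CR46036 while the second lay in an exon of lncRNA:CR46035.

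A further osa summit, at 3R 17700830, shared a region with the strongest one and differed between the replicates. Its signal was 400 in replicate 1, 100 in replicate 2 and 229 in the optimal list. The ratio of replicate 1 to replicate 2, 3.99, was the highest among the 10 genes and lay outside the 5th to 95th percentile of all optimal peaks, 0.565 to 1.70. The other pooled regions of osa were weak: of 26 in all, 3 were optimal.

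tna encodes a SUMO ligase-like protein with an SP-RING finger, found in flies through its interaction with brm and osa. All of its 12 optimal summits lay in intron 1 of its longest transcript, 34295 bp (3L 10835746 to 10870040), in 11 separate regions. They extended over 28194 bp, with gaps of 211 to 6473 bp between neighbours and a median gap of 2204 bp. None was within 500 bp of any start site. Of the 12, 6 had a tna start nearest, at 1695 to 3061 bp, and 6 had that of lncRNA:CR45169, which begins within the same intron. tna has 4 annotated start sites, and those at 3L 10857889, 10858404 and 10869828 also lie within that intron. Of the 6 summits nearest a tna start, only that at 3L 10838589 was nearest the 5'-most one.

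The strongest tna summit, at 3L 10855983, had signals of 511 in replicate 1, 455 in replicate 2 and 948 in the optimal list (rank 383). Next was 3L 10843503, with 258 in replicate 1, 214 in replicate 2 and 477 in the optimal list (rank 1335). The third, at 3L 10851975, had 181 in replicate 2 and 400 in the optimal list (rank 1743), and no summit of replicate 1 lay within 100 bp. A region of replicate 1 covered the position, with its summit 154 bp away and a signal of 226. That summit was the match of the neighbouring optimal summit, at 3L 10852200. The many peaks of tna were thus of middling height, with a median signal of 290, and 7 of the 12 were among the 3592 highest optimal peaks. Of the 12, 10 had a matching summit among the 7184 highest regions of both replicates.

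The lowest optimal signal at any of the 10 genes was also at tna, 146 at 3L 10856194, rank 6724. Just below the authors' threshold stood a pooled region of kis at 2L 220842, with 136 and rank 7228. At the edge of the windows, the farthest summit counted was 1935 bp beyond the span of trx, and the nearest not counted was 2019 bp upstream of tna, at 3L 10833509, with a signal of 162.

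In number of summits tna was matched or passed by few genes: 33 protein-coding genes, 3.26% of those of 20 kb or more, had at least 12, tna among them, and all 33 were that long. Per length of window, 16 long genes (1.58%) had at least the 2.67 optimal summits per 10 kb of tna, and so had 1207 of all protein-coding genes (8.66%), where 1 summit in a short window weighs more. The highest count of any gene was 30. Another 10 genes had exactly 12, and of these the 3 closest to its span of 40969 bp are given. NK7.1, a homeobox gene of 43539 bp, had its 12 in 10 separate regions with a highest signal of 821. Mnt, which encodes a Max partner that represses transcription, spans 29872 bp and had 11 regions and a highest signal of 852. Pdp1, a PAR-domain leucine zipper gene of 55912 bp, had 9 regions and a highest signal of 673.

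**Figure D2:**
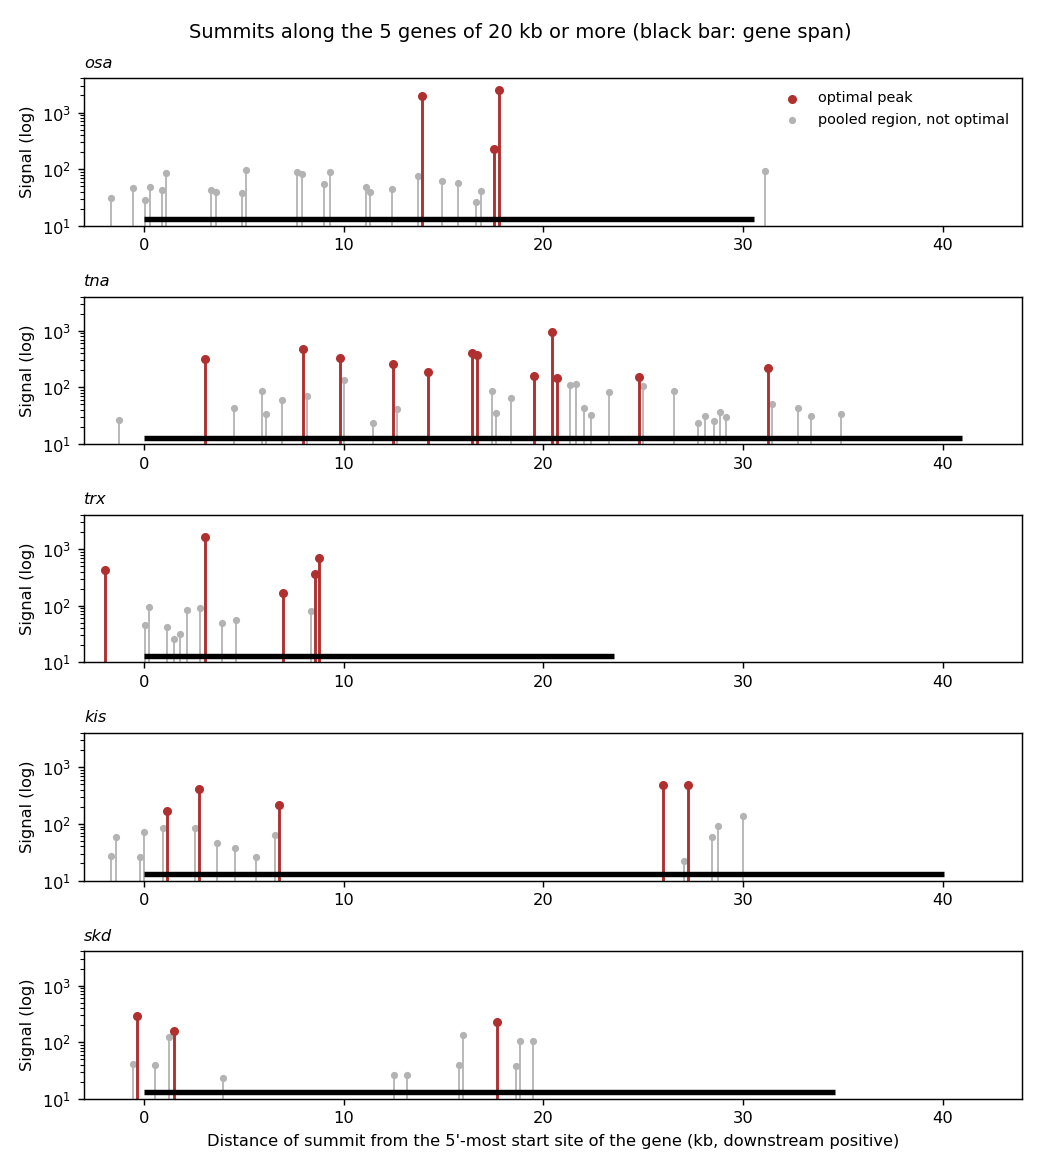
Signal of each summit (log scale) against its distance in kb from the 5'-most start site, for osa, tna, trx, kis and skd, with optimal peaks in red, other pooled regions in grey and the gene span as a black bar. The 12 optimal summits of tna are scattered over 28194 bp, those of osa sit in 2 tall groups, and the 4 inside trx lie in the 5' part of the gene.

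trx encodes a histone H3 lysine 4 methyltransferase, the founding member of the group. It held 5 optimal summits, 4 of them inside the gene in its first introns. The strongest, at 3R 14283867 in intron 1, had signals of 856 in replicate 1, 792 in replicate 2 and 1631 in the optimal list (rank 109), 3036 bp downstream of the trx start. In intron 2, the summit at 3R 14278144 had 355 in replicate 1, 327 in replicate 2 and 703 in the optimal list (rank 649).

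Another trx summit lay outside the gene, at 3R 14288838, 233 bp upstream of the start of red. It had 235 in replicate 1, 209 in replicate 2 and 434 in the optimal list. The other 2, inside the gene, had optimal signals of 358 and 167. At the trx start itself no optimal summit was found. The pooled list held a region there with its summit 36 bp downstream and a signal of 45.0, and another 235 bp downstream with 95.2.

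ash1 encodes a SET-domain histone H3 methyltransferase. Its window held the strongest summit of all 10 genes, at 3L 19590620, with signals of 1574 in replicate 1, 1384 in replicate 2 and 2957 in the optimal list, rank 10 of 7184. That summit was not at the ash1 promoter: it lay 153 bp past the 3' end of ash1, 8135 bp from its start and 96 bp upstream of the start of CG14100. No other region of the pooled list fell in the ash1 window.

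ash2 encodes a subunit shared by the COMPASS-type methyltransferase complexes, and its summit was the weakest leading summit of the 9 genes. The 1 optimal summit, at 3R 24655025, had 107 in replicate 1, 90.3 in replicate 2 and 197 in the optimal list (rank 4769). Like that of ash1 it lay past the 3' end of the gene, by 1649 bp, and 135 bp upstream of the start of a neighbour, CG6695. In brm, mor, ash1 and ash2 alike, the optimal summit was outside the span and the start of another gene was nearest. Over all protein-coding genes 38.1% had an optimal summit in the window, 14.8% in the span alone and 22.5% with their own start nearest. Nothing is therefore read from this. At brm the nearest start rests on a few bases. The summit of replicate 2, at 3L 15982998, had the brm start nearest, at 129 bp, and that of replicate 1 the start of Arl1, at 115 bp. At ash2 the summit of replicate 1, at 3R 24654977, had the start of CG31125 nearest, at 157 bp. That of replicate 2, at 3R 24655046, had the start of CG6695 nearest, at 114 bp.

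kis encodes a chromodomain remodelling ATPase of the CHD family. Of its 5 optimal summits, 2 lay in intron 12 and 3 in intron 1. At 2L 223578, 59 bp downstream of the start of lncRNA:CR44222, the signal was 252 in replicate 1, 239 in replicate 2 and 496 in the optimal list (rank 1228). Its neighbour at 2L 224802 had 254 in replicate 1, 219 in replicate 2 and 482 in the optimal list (rank 1306). In intron 1, the summit at 2L 248079 had 191 in replicate 1, 211 in replicate 2 and 412 in the optimal list (rank 1662), and the start nearest to it was that of lncRNA:CR44218, 830 bp away. The fifth, at 2L 249650, lay in an exon of lncRNA:CR44218 and had 95.9 in replicate 1, 78.5 in replicate 2 and 171 in the optimal list.

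The replicates differed at 1 kis summit. At 2L 244065, 924 bp upstream of mir-965, a microRNA gene within kis, replicate 1 had 124 and replicate 2 had no summit nearer than 2192 bp, where its signal was 25.6. The optimal signal there was 214. Of all optimal regions, 26 (0.362%) overlapped no region of replicate 2 and 15 (0.209%) none of replicate 1. At the 5'-most kis start the pooled list held a region with its summit 2 bp upstream, with a signal of 72.5, which was not optimal.

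skd encodes the large subunit of the Mediator kinase module, which represses Mediator and joins it to chromatin regulators. Its strongest optimal summit, at 3L 21027800, had 164 in replicate 1, 122 in replicate 2 and 287 in the optimal list (rank 2863), 366 bp upstream of the skd start and 115 bp upstream of Pdss2, a gene of coenzyme Q synthesis. In intron 3 the summit at 3L 21009758 had 109 in replicate 1, 108 in replicate 2 and 230 in the optimal list (rank 3914). The nearest start to it, 3238 bp away, was that of a small nuclear-body RNA gene, scaRNA:PsiU6-40. The third, at 3L 21025941, had 89.3 in replicate 1, 71.0 in replicate 2 and 159 in the optimal list, 263 bp downstream of a second skd start. The median of the 3 skd signals was 230, against 244 over all optimal peaks, and 1 of the 3 was among the 3592 highest optimal peaks.

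**Figure D3:**
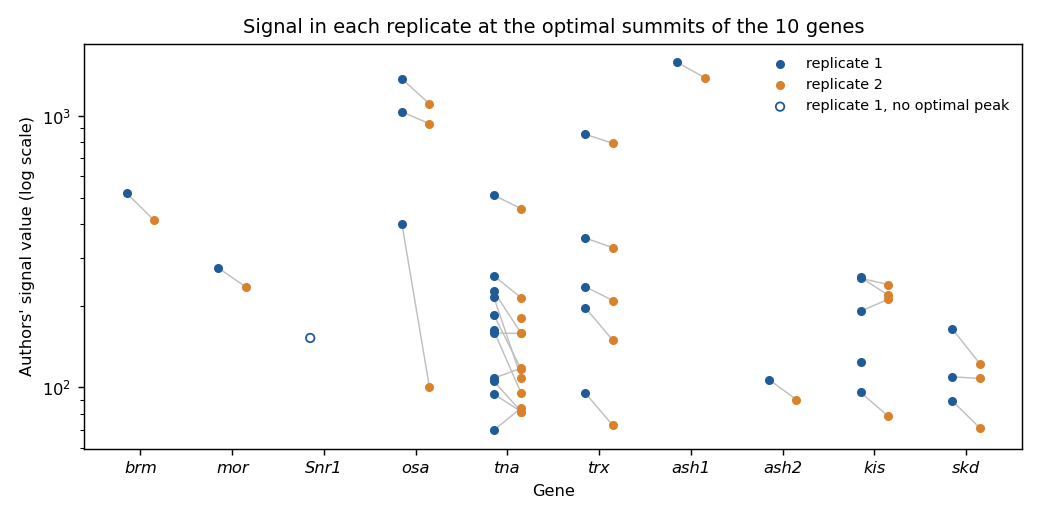
Authors' signal in replicate 1 (blue) and replicate 2 (orange) at each optimal summit (log scale) by gene, with a line where both replicates have a summit within 100 bp, and the region of Snr1 in replicate 1 as an open circle. The lines are near level for most summits, and the steep one at osa joins 400 in replicate 1 to 100 in replicate 2.

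Across the genes the replicates were close to each other at most summits. Optimal peaks had been kept by a reproducibility threshold, so nothing about these genes is read from that closeness. Of the 32, 30 had a summit within 100 bp in both replicates, and the ratio of replicate 1 to replicate 2 had a median of 1.18 with a range of 0.826 to 3.99. Over all optimal peaks 94.3% were so matched, with a median ratio of 1.08. Besides the osa summit above, the tna summit at 3L 10845341 was outside the 5th to 95th percentile, at 1.99, with 216 in replicate 1 and 109 in replicate 2. Of the 32 summits, 27 (84.4%) were among the 7184 highest of both replicates, against 73.5% of all optimal peaks. Since the lists hold no read counts, sequencing depth is unknown and its part in these ratios was not tested.

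Sequence around the summits, which played no part in choosing the genes, was A/T-rich, as it was at optimal peaks in general. In 201 bp around the summit the median GC content was 32.8%, against 33.3% for all optimal peaks and 38.3% for the 19876 pooled regions free of any optimal peak. An A/T run of 10 bp or more was present at 27 of 32 summits (84.4%), against 76.7% of optimal peaks and 63.7% of the pooled regions that were not optimal. At tna 9 of 12 summits (75%) had such a run, against 18 of 20 at the other genes. The median GC content of the tna summits was 29.4%, against 39.8% over the whole of its intron 1. All 5 summits of GC content at or below 25% were at tna, and 9.95% of all optimal peaks were as low.

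**Figure D4:**
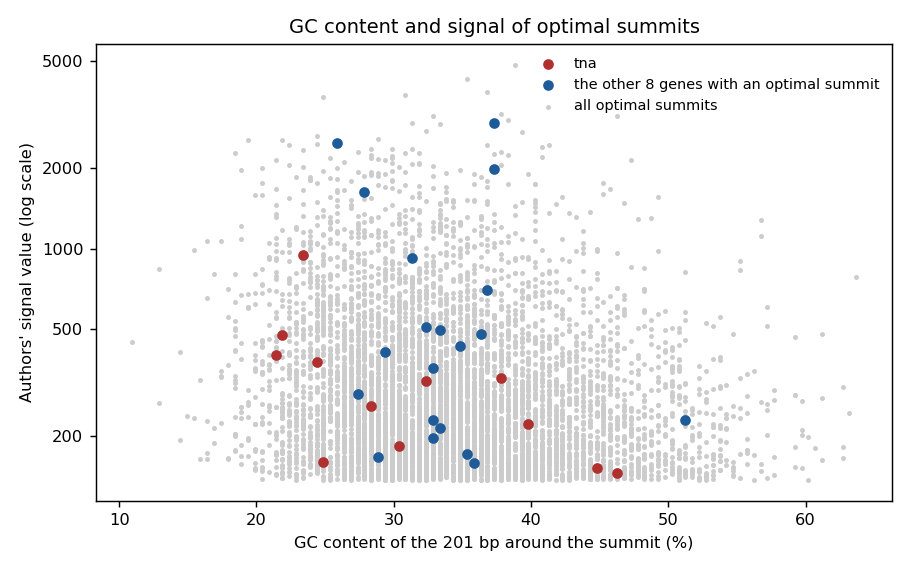
GC content in percent of the 201 bp around each summit (horizontal axis) against the authors' signal (log scale) for tna (red), the other 8 genes with an optimal summit (blue) and all optimal peaks (grey). The tna summits run between 21.4% and 46.3% GC, and the 5 red points at or below 25% include the 3 with the highest tna signals.

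Short motifs of factors known to work with trithorax group proteins were counted on both strands in the same windows. GAGAG, the core bound by GAGA factor, was present at 3 of 32 summits (9.38%), against 20.7% of all optimal peaks and 21.7% of the pooled regions that were not optimal. The 3 were at osa, trx and kis, and none of the 12 tna summits had it. The summits are not independent of each other, since 12 come from 1 intron. In wider windows of 150 bp either side, 8 of the 32 (25%) had the motif, against 33.0% of all optimal peaks. TGAGTG, a core of Zeste sites, was present at 5 summits (15.6%), 4 of them at trx and 1 at osa, against 9.20% of all optimal peaks. It can be read in the second trx line above, where CTCTC, the reverse complement of GAGAG, also stands.

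The shares of the other motifs are set beside those of all optimal peaks. CACACA, a CA repeat, was at 6 summits (18.8%, against 14.7%), of which 3 were at tna, 2 at skd and 1 at trx. GCCAT, the core bound by Pleiohomeotic, was at 7 (21.9%, against 23.1%). TATCGA, the core of the DNA replication-related element, was at 3 (9.38%, against 10.1%), and GTCACA, part of the M1BP site, at 3 (9.38%, against 6.70%). CAGCTG, an E-box, was at 2 (6.25%, against 7.38%), and CAGGTA, the Zelda core, at 1 (3.13%, against 3.74%). These are matches of letters, and binding of the factors was not measured.

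The other genes of the same machinery were read from a list of 47. Of these, 29 (61.7%) had an optimal summit in the same window, beside 38.1% of all protein-coding genes. Within 500 bp of a start site 19 (40.4%) had one, beside 21.1%. The 47 genes had a median span of 6487 bp, against 2166 bp for all protein-coding genes, and 7 spanned 20 kb or more. Nothing is read from the differences, nor from the counts by class below. Among 9 further Brahma subunit genes, 7 had an optimal summit. The highest were at Bap55, an actin-related subunit, with 938 and the start of Mtap nearest, and at Act5C, the actin gene, with 771 and the start of lncRNA:CR45668 nearest. Bap170 and e(y)3 had none.

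Of 14 genes of COMPASS-type methyltransferases, 7 had an optimal summit. Wdr82, a subunit of the Set1 complex, had 1910 at a summit 95 bp from the start of CG13390, and wds, the WD-repeat subunit common to these complexes, had 707 at a summit 1162 bp from that of egh. The catalytic subunit genes differed: trr had 3 optimal summits and Set1 had none. Of 4 partner genes of Trithorax or Ash1, 3 had one. Caf1-55, which encodes a histone chaperone, had 2218 nearest Art3, and MRG15, a chromodomain gene, had 1466 nearest Cp190.

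In the rest of the Mediator kinase module, kto, the partner of skd, had 202 nearest Papss, and the kinase gene Cdk8 had 158 at 93 bp from its own start, while CycC had no optimal summit. Of 7 other ATP-dependent remodellers 3 had one: Mi-2 (832, with 5 summits), Ino80 (727, at 99 bp from its own start) and Chd1 (609). Of 10 other trithorax group or recruiter genes 7 had one. Trl, which encodes GAGA factor itself, had 3673 at a summit 1532 bp from its own start, above every summit of the 10 genes. tara, a trithorax group gene of 34679 bp, had 15 optimal summits, more than tna, the highest at 1842 and 6732 bp from its own start. Many peaks along a long gene and high peaks at a neighbour's start were thus found elsewhere in the group too.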

How the data were processed

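Only dm6 lists were used. Per the file descriptions, the authors made peak lists for each replicate and for both pooled, and an optimal list by reproducibility thresholding. Aligner, peak caller and threshold were not given in the sources used here. A signal column that the authors deposited gives each region 1 number of unstated scale, used within a list and for the ratio of replicates at 1 summit. Summit offsets, another value deposited by the authors, were added to region starts to place summits. Depth is unknown, since the lists hold no read counts.

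Genes came from Ensembl release 115 (BDGP 6.54), without pseudogenes and transposable elements, and sequence from RefSeq Release 6. The 23722 start sites were the 5' ends of annotated transcripts. Regions off the main arms (2, in replicate 1) were left out. Ranks are by signal within a list. All values were computed in Python 3.11.15 with pandas 2.3.3, numpy 2.4.6, scipy 1.17.1 and matplotlib 3.10.9, and the functions were checked on simulated data. No test was made. The alternatives were other windows, own start nearest, the 3592 highest optimal peaks, all pooled regions, 1 summit per region, other motif windows and each replicate alone. Each replicate alone was read by the 7184 regions of highest signal in its list.

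The genes and lists were chosen with earlier results of these data known, and the 20 kb length, the A/T run and the 25% GC limit after the data were seen. Named are all 10 genes, the genes nearest to or spanning their optimal summits, and CG31125, nearest to a summit of replicate 1 at ash2. Also named are the 2 genes of highest signal in each related class (others there were chosen after their values were seen). The 3 genes closest to tna in count and span are named too. In full are given the 3 highest summits of each gene and any within 500 bp of its starts.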

Additional observations from a re-analysis of the deposited data

How the results depend on the processing

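No paired analysis was possible because both replicates form 1 group and no test was made. The number of the 10 genes with an optimal summit was 9; it was 5 in the gene span alone (14.8% of all protein-coding genes) and 3 where the gene's own start had to be nearest (22.5%). The 32 summits became 11, their 29 separate regions 9 and the 12 of tna 6 where the own start had to be nearest; among the 3592 highest optimal peaks they were 20, 19 and 7, and over all pooled regions 125, 81 and 40. Genes bound at a start site numbered 2 within 500 bp and 1 within 200 bp. For each replicate left out in turn, the 7184 regions of highest signal in the other replicate's list were used. The count was then between 2 and 5: without replicate 2, Snr1, mor and trx were added. Of all protein-coding genes 13.9% were so bound within 200 bp, and within 500 bp 21.1% without replicate 2 and 21.9% without replicate 1. The median signal of 343 was 325 in the gene span alone, 358 with 5 kb either side and 222 with the own start nearest. It was 378 with the highest summit of each region. In the 7184 highest regions of single replicates it was 149 to 163, against medians of 123 and 129 over all those regions. The GAGAG share of 9.38% was 6.25% within 50 bp and 25% within 150 bp, against 9.09% and 33.0% of all optimal peaks. It was 15% without replicate 2 and 20% without replicate 1, against 19.9% and 22.4% of the 7184 highest regions of the replicate kept. Limits are the unstated signal scale, the unknown depth, the control not analysed here, and annotation: a summit between close genes counts for each of them.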

Other observations

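Optimal summits outside the windows lay at distances that differed widely between the genes. The nearest to mor was 2796 bp past its span, with a signal of 384, and the nearest to trx 3285 bp, with a signal of 182. The nearest to skd, at 3L 21031573, was 4139 bp past its span, had a signal of 1309 and lay 213 bp from the start of CG10584. The nearest to ash1 was 13572 bp past its span, at 3L 19612327, with a signal of 1861. Both Lon and PIG-F had a start 128 bp from it. Around Snr1 the nearest was 12716 bp away, with a signal of 263, and around ash2 23752 bp away, with a signal of 140.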
